A study of Mus musculus with 4 samples.

Results

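The respiratory chain and ATP synthase of mitochondria are built from subunits of both genomes, and the nuclear-encoded subunits were followed here in RNA of cells labelled as regulatory T cells (Treg cells) of mouse skin. Members were chosen by name alone: Nduf followed by a, b, c, s or v and a digit, Sdha to Sdhd, and names starting with Uqcr, Cox4 to Cox8 or Atp5. Of 55487 genes in the 4 tables, 102 names matched, 13 names holding -ps were dropped, and 89 remained. By name these were 40 genes of complex I, 4 of complex II, 8 of complex III, 19 of complex IV and 18 of complex V. This assignment by name was kept throughout. It counts Ndufa4, a complex IV subunit, and its relative Ndufa4l2 under complex I. GENCODE M21 (GRCm38) listed 85 of the 89 as protein-coding and 4 (Ndufa11b, Ndufb4c, Ndufs6b and Cox6c2) as processed pseudogenes. Of the 89, 6 were listed at 0 in every library, and 83 reached 1 TPM (a level scaled to transcript length and to the same total in each library) in at least 2 of the 4 libraries and were tested.

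Complexes I and II pass electrons from NADH and succinate to coenzyme Q, complex III passes them to cytochrome c, and complex IV reduces oxygen. Complexes I, III and IV pump protons, and complex V uses the proton gradient to make ATP. Complex II is wholly nuclear-encoded, whereas the other complexes also hold subunits made from mitochondrial DNA. Regulatory T cells, which restrain other immune cells and whose defining factor is Foxp3, are known to lean on mitochondrial respiration more than effector T cells do.

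All mice had psoriasis-like dermatitis from Aldara, a cream that holds 5% imiquimod (a TLR7 agonist), of which 60 mg a day was put on shaved back skin. The non-UVB group (2 libraries, numbered 1 and 2) received no irradiation, and the UVB group (2 libraries, numbered 1 and 2) was exposed to narrow-band ultraviolet B 3 times. The comparison asked how UVB alters skin Treg cells. Strain, age, sorting gate and the number of animals per library were not stated in the labels, and replicates may be technical, in which case a p-value reflects no more than library-to-library spread. In RNA of bulk samples, fewer cells of a type and less RNA per cell cannot be told apart. Values below are given for replicates 1 and 2 in that order.

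The libraries of either number stood apart from each other in several of their markers, in both groups. Foxp3 was listed at 0 in non-UVB replicate 1 and had 19.4 TPM in non-UVB replicate 2, and the UVB libraries had 3.49 and 19.3 TPM. The 14 genes of a CD4 and regulatory T cell list did not divide by number. They summed to 8883 and 10577 TPM in the non-UVB and to 7917 and 7369 TPM in the UVB libraries, without overlap of the groups. A list of 7 gamma-delta T cell genes came to 9331 and 8762 TPM in replicate 1 of the non-UVB and UVB groups and to 176 and 306 TPM in replicate 2. A list of 12 keratinocyte genes went the other way, at 342 and 463 TPM against 3950 and 4435 TPM. Macrophage and dendritic cell genes (15) summed to 13352 and 6045 TPM in the non-UVB and to 22342 and 13842 TPM in the UVB libraries, also without overlap. Of the 14 tested, 13 had a higher mean with UVB (92.9%, against 61.0% of all genes) and 1 a lower one. Genes of red blood cells held 11.8% of all TPM in non-UVB replicate 1 and 0.153% to 0.441% in the other libraries. The FPKM values rested on 3.41 and 2.47 gigabases without UVB and on 4.2 and 2.38 gigabases with UVB. The part of these differences in the results below was not tested.

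The start sites of 6 members that the results turn on are shown first, because the tissue isoforms Cox6b2 and Cox7a1 were listed at 0 in libraries where their ubiquitous counterparts Cox6b1 and Cox7a2 were abundant, and because Sdha and Sdhb varied most between libraries within complex II. Each sequence runs from 250 bases before to 50 after the RefSeq start in the direction of the gene (GRCm38.p6). Capitals mark matches, on either strand, to TGCGCA (the core of the palindrome bound by NRF1, a regulator of respiratory chain genes), to CCGGAAG (the ETS motif that GABP, another such regulator, binds) and to AAGATGGC (bound by YY1). CCGGAAG and AAGATGGC can share the letters AAG.
Cox6b1 (chr7:30626065-30626364, minus strand): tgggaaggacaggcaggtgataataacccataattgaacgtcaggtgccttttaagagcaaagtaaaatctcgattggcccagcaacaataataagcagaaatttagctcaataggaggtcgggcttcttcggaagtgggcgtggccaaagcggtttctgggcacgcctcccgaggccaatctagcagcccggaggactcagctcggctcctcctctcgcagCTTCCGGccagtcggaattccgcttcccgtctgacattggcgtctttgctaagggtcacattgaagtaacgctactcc
Cox6b2 (chr7:4753045-4753344, minus strand): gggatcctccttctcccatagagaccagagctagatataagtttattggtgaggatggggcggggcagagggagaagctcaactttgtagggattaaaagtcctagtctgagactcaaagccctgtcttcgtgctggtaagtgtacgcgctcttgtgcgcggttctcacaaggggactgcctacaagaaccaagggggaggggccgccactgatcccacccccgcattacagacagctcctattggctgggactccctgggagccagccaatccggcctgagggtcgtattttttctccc
Cox7a2 (chr9:79759804-79760103, minus strand): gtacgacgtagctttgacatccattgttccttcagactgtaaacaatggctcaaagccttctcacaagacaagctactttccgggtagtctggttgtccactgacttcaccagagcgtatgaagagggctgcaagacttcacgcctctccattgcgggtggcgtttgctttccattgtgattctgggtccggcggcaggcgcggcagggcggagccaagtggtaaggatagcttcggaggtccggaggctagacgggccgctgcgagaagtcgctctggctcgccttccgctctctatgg
Cox7a1 (chr7:30183921-30184220, plus strand): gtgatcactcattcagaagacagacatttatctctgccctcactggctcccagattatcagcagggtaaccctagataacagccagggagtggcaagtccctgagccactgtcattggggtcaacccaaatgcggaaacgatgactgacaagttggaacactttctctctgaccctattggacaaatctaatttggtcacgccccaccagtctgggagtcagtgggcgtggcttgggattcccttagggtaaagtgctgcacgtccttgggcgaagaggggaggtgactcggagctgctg
Sdha (chr13:74350191-74350490, minus strand): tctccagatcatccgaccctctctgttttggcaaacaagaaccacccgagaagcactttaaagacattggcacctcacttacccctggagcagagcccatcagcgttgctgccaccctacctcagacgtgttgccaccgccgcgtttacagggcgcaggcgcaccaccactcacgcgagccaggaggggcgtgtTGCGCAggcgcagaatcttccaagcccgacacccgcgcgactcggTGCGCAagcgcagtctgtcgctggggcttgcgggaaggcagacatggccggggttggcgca
Sdhb (chr4:140961021-140961320, plus strand): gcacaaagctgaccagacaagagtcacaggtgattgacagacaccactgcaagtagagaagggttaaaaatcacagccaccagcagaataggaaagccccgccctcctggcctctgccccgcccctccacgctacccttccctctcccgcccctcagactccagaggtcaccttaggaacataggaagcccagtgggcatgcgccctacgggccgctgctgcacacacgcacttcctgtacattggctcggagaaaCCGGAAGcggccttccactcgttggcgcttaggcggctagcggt

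Both matches in Sdha were to TGCGCA, and the single matches in Cox6b1 and Sdhb were to CCGGAAG. No match to these letters was found in the windows of Cox6b2, Cox7a2 or Cox7a1. RefSeq windows were matched by symbol for 68 of the 88 member names, 73 windows in all. TGCGCA was in 26.0% of member windows, against 7.76% of all 32851 windows and 14.4% of windows of genes tested here. CCGGAAG was in 23.3% of member windows, 8.86% of all windows and 19.4% of windows of tested genes, and AAGATGGC was in 13.7%, 2.75% and 4.94%. The GC box GGGCGG was less frequent in member windows (39.7%) than in windows of tested genes (63.0%). CCAAT was in 42.5% of member windows and 37.9% of windows of tested genes, and TATAAA was in 12.3% and 7.96%. Motifs were sought on both strands, and these shares describe letters in a window and not bound sites.

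Nuclear-encoded subunits held between 3.01% and 3.83% of all TPM in each library. The 89 members summed to 30107 and 38308 TPM in the non-UVB and to 33403 and 34734 TPM in the UVB libraries. The group means were 34207 ± 5799 and 34069 ± 941 TPM (SD, n = 2 per group), and the UVB libraries lay between the non-UVB libraries. The exact two-sided permutation p was 1, where 2 against 2 libraries cannot go below 0.333. The ratio of the UVB to the non-UVB mean was 0.996 on the deposited scale and 0.617 after scaling to the median tested gene. It was 0.987 after quantile normalization, 0.974 on FPKM and 0.941 with haemoglobin and mitochondrially encoded genes left out of the total. By complex, on the deposited scale, that ratio was 0.997 for complex I, 0.993 for III, 0.940 for IV and 1 for V. Complex II, with only 4 genes, had a ratio of 1.86, from 715 and 234 TPM in the non-UVB and 1091 and 672 TPM in the UVB libraries, and these ranges overlapped. Complex IV was the one complex whose groups did not overlap (8365 and 8853 TPM against 8095 and 8081 TPM, exact permutation p = 0.333).

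**Figure D1:**
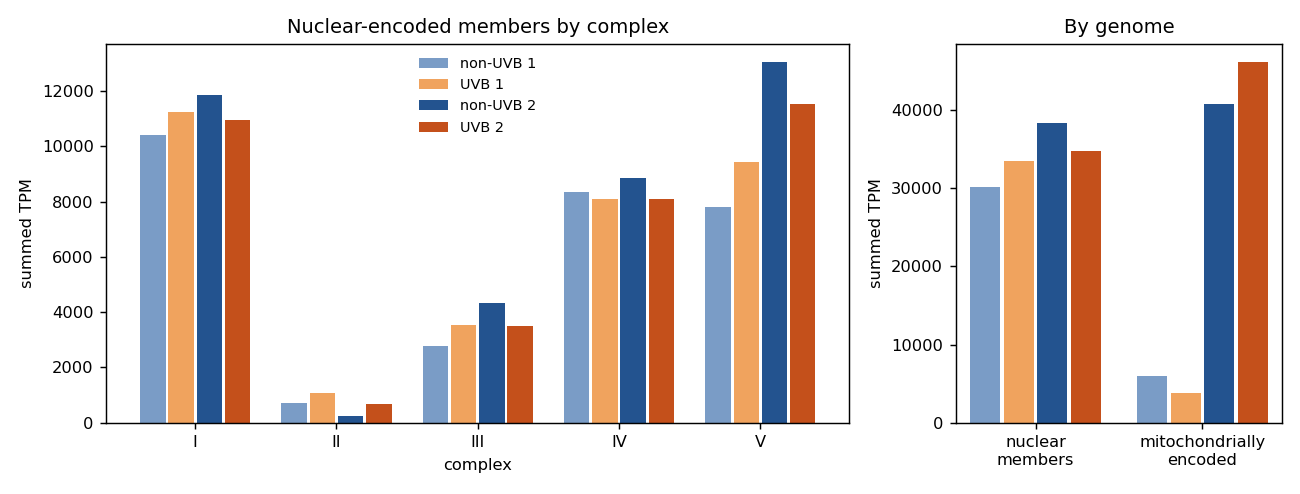
Summed TPM (y axis) of the nuclear-encoded members of each complex in each library (left) and of all nuclear members beside the 13 mitochondrially encoded subunits (right), with 1 bar per library. Nuclear sums lay between 30107 and 38308 TPM, whereas the mitochondrially encoded sums were 5981 and 3770 TPM in the libraries numbered 1 and 40721 and 46111 TPM in those numbered 2.

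The subunits of the mitochondrial genome did not keep step with this. The 13 mitochondrially encoded subunits summed to 5981 and 40721 TPM in the non-UVB and to 3770 and 46111 TPM in the UVB libraries, so the nuclear to mitochondrial ratio was 5.03 and 0.941 without UVB and 8.86 and 0.753 with UVB.

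Levels differed more between subunits than between groups. Among the 76 protein-coding members that were not on the tissue isoform list and were detected, 0 were listed at 0 in any library, and their median level was 254 and 424 TPM in the non-UVB and 345 and 336 TPM in the UVB libraries. Across these 76 genes, log2 levels of 2 libraries correlated with a Pearson r between 0.56 (the 2 non-UVB libraries) and 0.81 (the 2 UVB libraries), a description over genes that share their libraries and lengths. Subunits of complex IV had the highest medians, between 625 and 857 TPM over the 11 ubiquitous genes, and those of complex I had medians between 208 and 250 TPM over 36 genes. Within complex I the highest subunit exceeded the lowest 35.4-fold in UVB replicate 1 and 1148-fold in non-UVB replicate 2. Within complex III the ratio was between 7.10 and 11.3 in the 4 libraries. Members were short, with a median of 1550 bases of exon per gene, against 3066 bases over all genes tested.

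**Figure D2:**
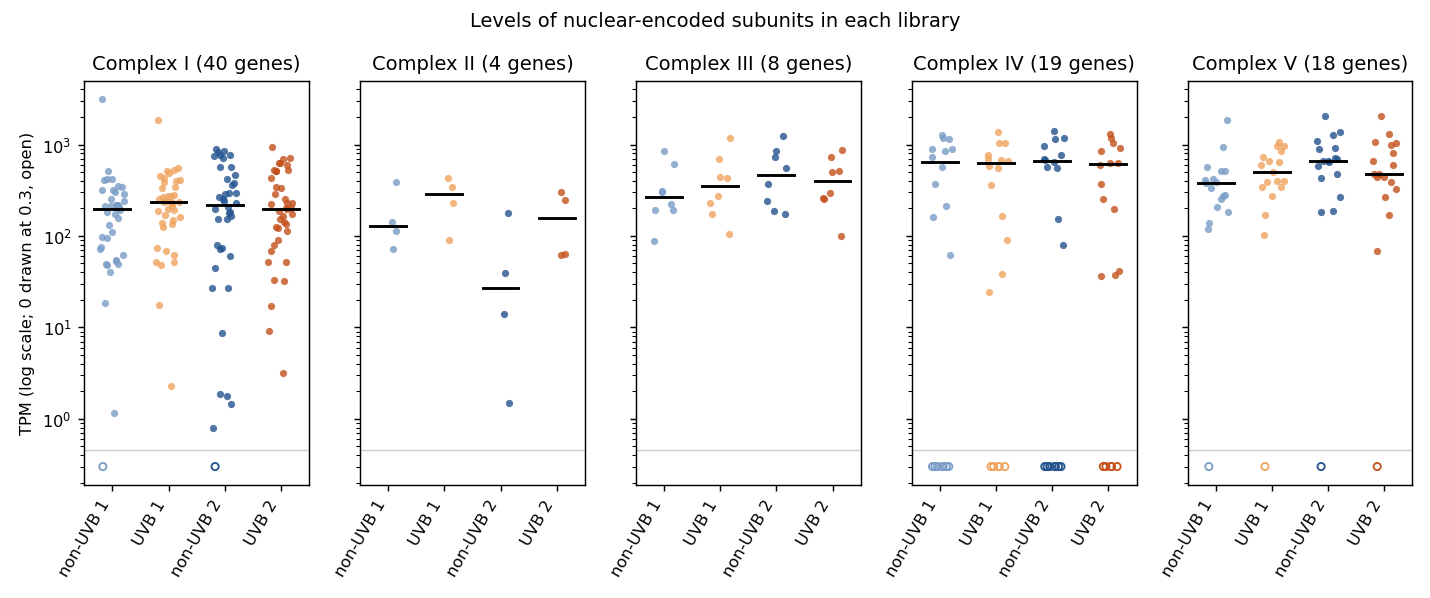
TPM of every member (y axis, log scale) in each library, 1 panel per complex, with 1 point per gene, genes listed at 0 as open points at the bottom, and a bar at the median of the tested members. Medians of complexes I and IV were close across libraries, and the points of complexes I and II reach furthest down in non-UVB replicate 2.

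No member passed the test for a difference with UVB. With limma on log2(TPM + 1), 0 of 83 members and 0% of 10286 genes had a Benjamini-Hochberg adjusted p under 0.05. At an unadjusted p under 0.05, 3 members were higher with UVB (3.61% of 83, against 9.97% of all genes tested) and 0 were lower (1.37% of all genes). Both UVB libraries lay above both non-UVB libraries for 13 members (15.7%, against 23.2% of all genes) and below them for 8 (9.64%, against 9.71%). The 13 include 3 tissue isoforms that passed the filter only through the UVB libraries and so had to lie above. Among the 76 detected protein-coding members off the tissue isoform list, 9 (11.8%) lay above and 8 (10.5%) below. That split of 13 to 8 was 5 to 26 after scaling to the median tested gene, 11 to 11 after quantile normalization and 11 to 14 with haemoglobin and mitochondrially encoded genes left out of the total. A higher mean with UVB was found for 52 members (62.7%) and for 61.0% of all genes, and for 20 of the 83 members after scaling to the median tested gene. The median difference of the members was 0.16 log2, and that of all genes tested was 0.26, a shift that was -0.19 after quantile normalization and -0.27 after scaling to the median. Relative to all genes the members lay at -0.10, 0.30 and -0.21, and at 0.12 with no filter on low values, so the direction for the list as a whole turned with the scaling and the filter. The median SE of a member was 0.58 log2, against 1.12 over all genes tested. Within the libraries numbered 1 the members' median difference with UVB was 0.35, and within those numbered 2 it was -0.02.

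**Figure D3:**
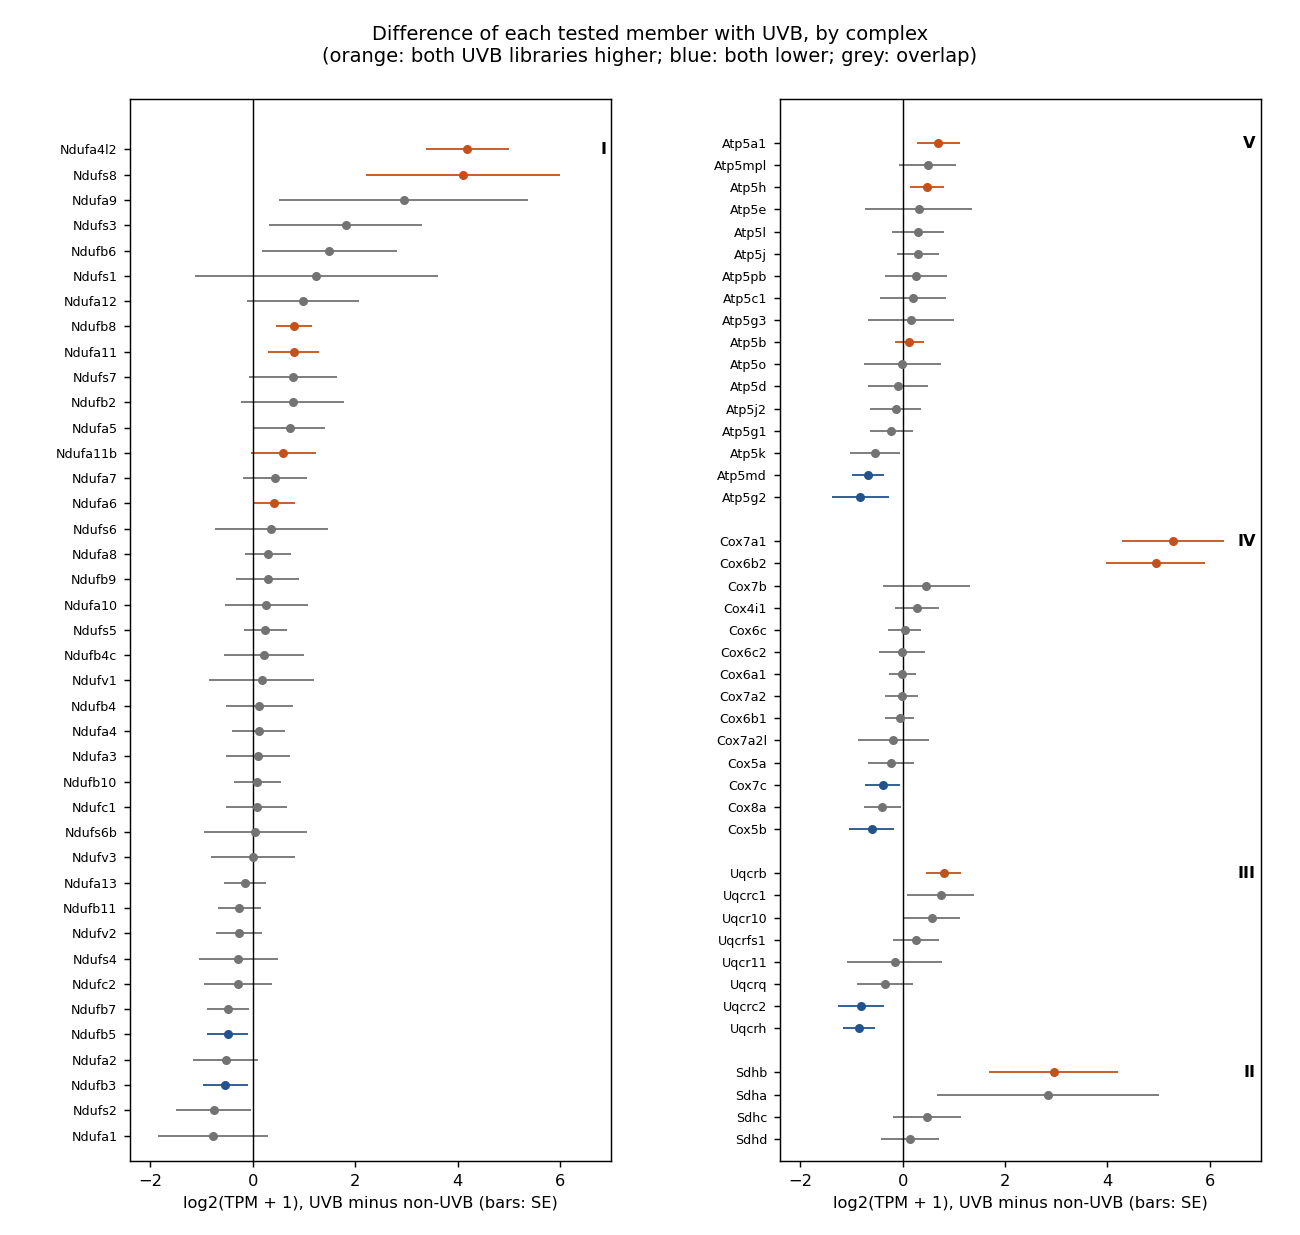
Difference between UVB and non-UVB libraries on the log2(TPM + 1) scale (x axis) with its SE from limma, for the 83 tested members, by complex (2 libraries per group). Most points lie within 1 log2 of 0, and the points furthest right are Cox7a1, Cox6b2 and Ndufa4l2, at 0 in every non-UVB library, and Ndufs8.

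The tissue isoforms were the 3 members with an unadjusted p under 0.05. Cox7a1 (ENSMUSG00000074218, chromosome 7, 30184144 to 30186078, GRCm38), an isoform of complex IV known from heart and muscle, was listed at 0 without UVB, in either library, whereas the UVB libraries had 38.4 and 37.2 TPM. Cox6b2 (chromosome 7, 4751792 to 4753094), known from testis, was at 0 and 0 against 24.5 and 36.1 TPM. Ndufa4l2 (chromosome 10, 127514967 to 127517154), a hypoxia-induced relative of the complex IV subunit Ndufa4, was at 0 and 0 against 17.4 and 17.2 TPM. The groups did not overlap for any of the 3, and each had a limma adjusted p of 0.223. All 3 passed the filter only through the UVB libraries, so that they had to differ once tested. The same pattern, 0 TPM in both non-UVB libraries and at least 10 TPM in both UVB libraries, was found at 1.07% of all genes tested, 110 genes, and the opposite pattern at 0.0875%. Detection moved with it over the whole libraries, since 7825 and 8033 genes reached 1 TPM without UVB against 10317 and 10227 with UVB, and the part of this in the 0 values was not tested.

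The other 5 genes of the isoform list (Cox4i2, Cox6a2, Cox7b2, Cox8b and Cox8c) were listed at 0 in all 4 libraries. Of 5 muscle genes, Ckm, Myh4, Myl1 and Tnnt3 were listed at 0 throughout and Acta1 was at most at 0.624 TPM. Of 6 pericyte and 6 adipocyte markers, lists chosen after the isoforms' values were seen, all pericyte genes were at 0 in every library, and the adipocyte genes Plin1 and Fabp4 reached 6.11 and 5.37 TPM in 1 library each. Which cells the isoform transcripts came from was not tested. The ubiquitous counterparts were far more abundant and steady, with Cox6b1 at 1183 and 1143 TPM in the non-UVB and 1051 and 1188 TPM in the UVB libraries, and Cox7a2 at 561 and 637 TPM against 557 and 625 TPM. Shmt2, which overlaps 2.92% of the exon bases of Ndufa4l2 on the opposite strand, had 0 and 9.25 TPM in the non-UVB and 64.7 and 45.4 TPM in the UVB libraries. The labels do not state strandedness, so reads in that overlap cannot be assigned.

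**Figure D4:**
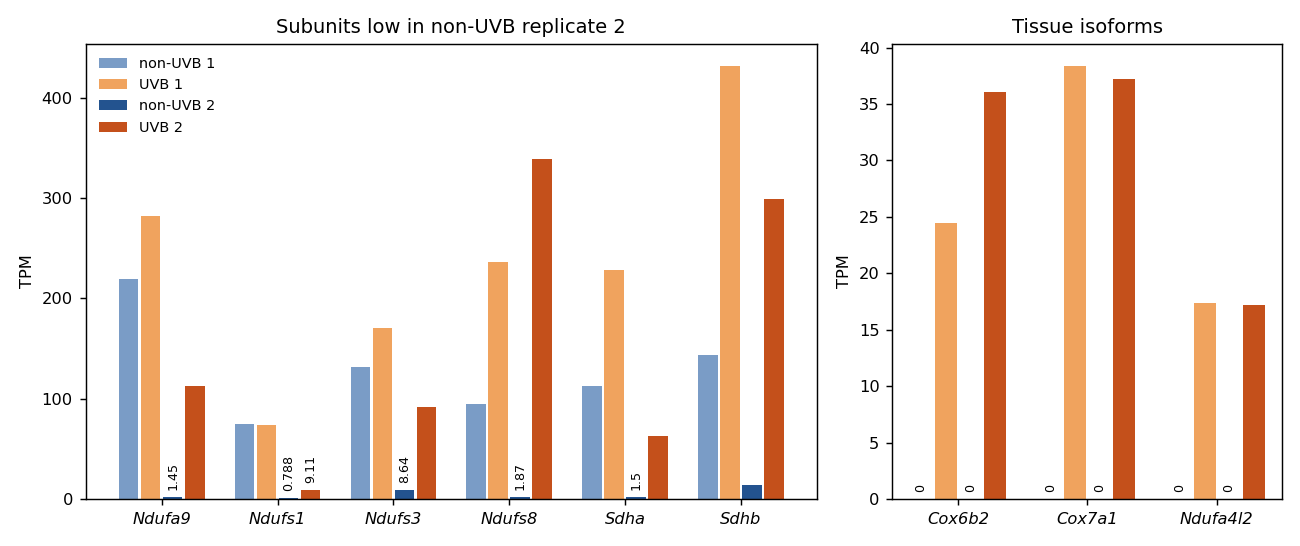
TPM (y axis) of the 6 subunits below 10% of every other library in non-UVB replicate 2 (left) and of the 3 detected tissue isoforms (right), with 1 bar per library and values under 10 TPM written above the bars. The isoforms were at 0 in both non-UVB libraries, whereas the 6 subunits were low in non-UVB replicate 2 alone, except that Ndufs1 was also at 9.11 TPM in UVB replicate 2.

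Complex I showed its widest spread in subunits of its catalytic arm. Ndufs1 (chromosome 1, 63143596 to 63176833), which carries iron-sulfur clusters of the electron path, had 75.1 and 0.788 TPM in the non-UVB and 74.1 and 9.11 TPM in the UVB libraries. Ndufs8 (chromosome 19, 3908863 to 3912774), another iron-sulfur subunit, had 94.7 and 1.87 TPM against 236 and 339 TPM. Both were lowest in non-UVB replicate 2, and only for Ndufs8 did the groups not overlap. The difference of Ndufs8 was 4.10 ± 1.90 log2 (SE, n = 2 per group, limma adjusted p = 0.653), 1.57 without non-UVB replicate 2 and 6.63 without non-UVB replicate 1. Ndufs1 stood at 1.24 ± 2.38 (limma adjusted p = 1), at -1.47 without non-UVB replicate 2 and at 3.95 without non-UVB replicate 1. Ndufv1, which binds NADH, had 49.4 and 164 TPM against 52.1 and 196 TPM, higher in both libraries numbered 2. Of the 7 core subunits tested, 5 had a higher mean with UVB and 2 a lower one, against 61.0% of all genes with a higher mean. Of these 7, 1 (14.3%) was separated above, against 23.2% of all genes.

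The low values of non-UVB replicate 2 recurred in 6 tested members, a count made after the values were seen. Ndufs1, Ndufs3, Ndufs8, Ndufa9, Sdha and Sdhb were there below 10% of their lowest level in the other libraries. This was 7.23% of the members, against 10.9% of all genes tested in the same library. No member was that low in non-UVB replicate 1, UVB replicate 1 or UVB replicate 2, where 16.5%, 4.37% and 3.43% of all genes were. Ndufa9, an accessory subunit beside the coenzyme Q site, had 220 and 1.45 TPM in the non-UVB and 282 and 112 TPM in the UVB libraries. Ndufs3, a core subunit, had 132 and 8.64 TPM against 171 and 91.4 TPM.

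Among the accessory subunits of complex I, Ndufa1, a small membrane subunit needed for assembly, was the most abundant. It had 3117 and 756 TPM in the non-UVB and 1847 and 432 TPM in the UVB libraries, so that both libraries numbered 1 exceeded both numbered 2. Ndufa3, also in the membrane arm, had 406 and 904 TPM against 452 and 933 TPM, with both libraries numbered 2 higher. The accessory subunit Ndufb8 had 339 and 377 TPM against 550 and 707 TPM, with no overlap and a difference of 0.80 ± 0.35 log2 (limma adjusted p = 0.609), which was 0.16 ± 0.49 after scaling to the median tested gene. On the lower side, Ndufb3 had 217 and 295 TPM against 150 and 202 TPM, Ndufb5 had 240 and 232 TPM against 161 and 173 TPM, and Ndufb7 had 509 and 764 TPM against 385 and 517 TPM. Ndufb3 and Ndufb5 did not overlap between groups, and Ndufb7 did. Of the 36 ubiquitous genes of complex I, 25 had a higher mean with UVB and 11 a lower one, with 4 (11.1%) and 2 (5.56%) of them separated, against 23.2% and 9.71% of all genes.

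All 4 subunits of complex II had a higher mean with UVB, and 3 of them were higher within both replicate numbers, where 61.0% of all genes had a higher mean and 34.0% were higher within both numbers. Sdha (chromosome 13, 74322254 to 74350280), the flavoprotein that oxidises succinate, had 113 and 1.5 TPM in the non-UVB and 228 and 63.2 TPM in the UVB libraries. Sdhb (chromosome 4, 140961203 to 140979193), the iron-sulfur subunit, had 144 and 14.1 TPM against 432 and 299 TPM. The groups overlapped for Sdha and not for Sdhb. Sdhb stood at 2.95 ± 1.26 log2 (limma adjusted p = 0.589) and Sdha at 2.84 ± 2.17 (adjusted p = 0.942). Without non-UVB replicate 2 these were 1.32 and 0.09, and without non-UVB replicate 1 they were 4.58 and 5.60. The membrane anchors were steadier, with Sdhc at 71.1 and 39.7 TPM against 90.2 and 61.2 TPM and Sdhd at 387 and 179 TPM against 341 and 249 TPM, both overlapping.

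Complex III held members with differences of either sign, none past the test. Uqcrh, the hinge protein that contacts cytochrome c1, had 860 and 843 TPM in the non-UVB and 441 and 500 TPM in the UVB libraries (-0.86 ± 0.31 log2). Uqcrc2, a core protein, had 193 and 173 TPM against 106 and 101 TPM (-0.81 ± 0.44. log2) Uqcrb, a subunit near the coenzyme Q site, had 616 and 548 TPM against 1189 and 866 TPM (0.80 ± 0.34. log2) None of the 3 overlapped between groups, and their limma adjusted p-values were 0.448, 0.764 and 0.579. After scaling to the median tested gene the differences were -1.50 for Uqcrh, -1.45 for Uqcrc2 and 0.16 ± 0.42 for Uqcrb. The other core protein, Uqcrc1, had 88.5 and 241 TPM against 230 and 262 TPM and overlapped. The iron-sulfur protein Uqcrfs1, whose moving head passes electrons on, had 304 and 186 TPM against 273 and 297 TPM. Uqcr10 had 308 and 736 TPM against 691 and 728 TPM, and Uqcrq had 191 and 372 TPM against 175 and 253 TPM, small subunits that both overlapped. In all, 4 of the 8 genes had a higher mean with UVB and 4 a lower one.

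As a list, the ubiquitous subunits of complex IV varied less between libraries than those of the other complexes. The ratio of the highest to the lowest library had a median of 1.77 over these 11 genes, against 2.80 in complex I, 16.5 in II, 2.15 in III and 2.38 in V. Cox6a1 had 1281 and 1415 TPM in the non-UVB and 1372 and 1315 TPM in the UVB libraries, so that its highest library exceeded its lowest by 1.1-fold, and the ratio was 1.13 for Cox6b1, 1.14 for Cox7a2 and 1.29 for Cox6c. It was 2.21 for Cox7a2l, 2.26 for Cox5b and 4.23 for Cox7b, which had 162 and 685 TPM against 579 and 367 TPM. Over all tested members that ratio had a median of 2.34, and over all genes tested 6.83, leaving out genes listed at 0 in a library. Cox4i1, the regulatory subunit that binds ATP, had 857 and 553 TPM against 682 and 1032 TPM, and Cox5a had 1159 and 765 TPM against 1043 and 621 TPM. Cox8a had 893 and 1179 TPM against 667 and 914 TPM and overlapped by a narrow margin. Cox5b had 372 and 574 TPM against 361 and 254 TPM, and Cox7c had 728 and 974 TPM against 695 and 595 TPM, both without overlap. Of the 11 ubiquitous genes 3 had a higher mean with UVB (27.3%, against 61.0% of all genes) and 8 a lower one, on the deposited scale. Of the 11, 0 were separated above and 2 (18.2%) below, against 23.2% and 9.71% of all genes.

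In complex V the catalytic beta subunit Atp5b was nearly level, with 944 and 923 TPM in the non-UVB and 1066 and 978 TPM in the UVB libraries. Its groups did not overlap on this deposited scale, but both UVB libraries lay below both non-UVB libraries after scaling to the median tested gene. The partner of Atp5b in the catalytic head, the alpha subunit Atp5a1, had 184 and 264 TPM against 398 and 323 TPM (0.70 ± 0.42 log2). Atp5h of the peripheral stalk had 518 and 686 TPM against 856 and 802 TPM (0.47 ± 0.33 log2). Atp5md, a small membrane subunit that joins ATP synthase dimers, had 1876 and 1359 TPM against 965 and 1036 TPM (-0.67 ± 0.32 log2). The groups did not overlap for these 3 genes, whose limma adjusted p-values were 0.829, 0.903 and 0.660. Scaling to the median tested gene turned the difference of Atp5h to -0.17, and took that of Atp5a1 to 0.06 and that of Atp5md to -1.32 (limma adjusted p = 0.321). Haus1 overlaps 4.11% of the exon bases of Atp5a1 on the opposite strand, and reads in that overlap cannot be assigned. It had 0.133 and 0.178 TPM in the non-UVB and 125 and 98.8 TPM in the UVB libraries. Atp5e, the epsilon subunit, had 423 and 2065 TPM against 660 and 2057 TPM, so that both libraries numbered 2 were higher in each group. Of the 17 tested genes of complex V, 3 (17.6%) were separated above and 2 (11.8%) below on the deposited scale, against 23.2% and 9.71% of all genes.

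The c ring is encoded by 3 genes whose mature protein is the same. Atp5g1 had 380 and 579 TPM in the non-UVB and 342 and 475 TPM in the UVB libraries, Atp5g3 had 138 and 430 TPM against 171 and 436 TPM, and Atp5g2 had 119 and 183 TPM against 102 and 68.1 TPM. Only Atp5g2 was separated between the groups, at -0.82 ± 0.55 log2 (limma adjusted p = 0.894) and at -1.46 after scaling to the median tested gene. Their sum was 638 and 1193 TPM in the non-UVB and 614 and 979 TPM in the UVB libraries, ranges that overlapped. Atp5mpl had 508 and 1256 TPM against 974 and 1290 TPM, and Atp5k had 391 and 655 TPM against 273 and 443 TPM, small membrane subunits that overlapped. A second gene ID named Atp5o, which overlaps Donson, was listed at 0 in all libraries, and the main Atp5o had 210 and 646 TPM against 501 and 270 TPM.

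Several members share sequence with intron-free copies elsewhere, and how steady the ratio of copy to parent was differed between pairs. The member Ndufb4c, on chromosome 15, is 100% identical over 390 bases to a transcript of Ndufb4 on chromosome 16, and its TPM was 0.395, 0.377, 0.414 and 0.412 times that of Ndufb4 in non-UVB 1, non-UVB 2, UVB 1 and UVB 2. Cox6c2 (97% identical over 231 bases) was at 0.237, 0.219, 0.213 and 0.229 times Cox6c in the same order. Ndufs6b (96.6% over 348 bases) ranged from 0.162 to 0.297 times Ndufs6, and Ndufa11b, 94.8% identical over 424 bases, reached at most 3.18 TPM. Among the dropped names, Ndufa12-ps (99.5% identical over 402 bases) had 276 and 52.3 TPM in the non-UVB and 232 and 233 TPM in the UVB libraries, beside 319 and 44.1 TPM and 252 and 222 TPM for Ndufa12. Reads of such pairs could be split between them by the counting, so levels of Ndufa12, Ndufb4, Ndufs6 and Cox6c, and of their copies, are uncertain. The same holds for Cox5b, Cox7c, Uqcrh, Atp5k, Atp5l, Atp5pb and Ndufs5, whose dropped copies are between 93.3% and 99.4% identical to them, and so for the separation of Cox5b, Cox7c and Uqcrh between groups.

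**Figure D5:**
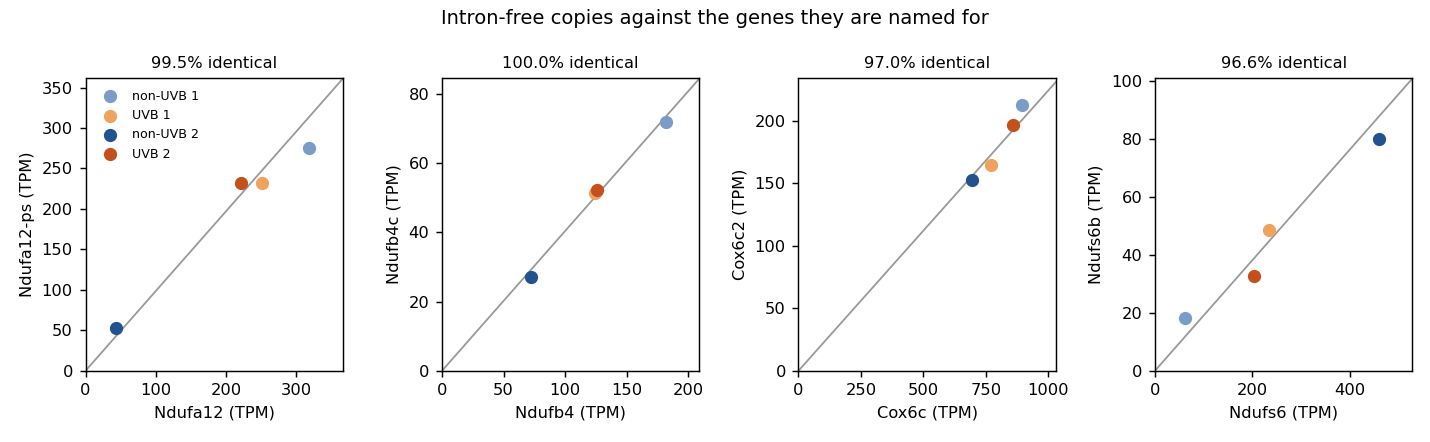
TPM of 4 intron-free copies (y axes) against the genes they are named for (x axes), with 1 point per library and a line at the median ratio of the 4 libraries. Ndufb4c and Cox6c2 lie close to the line, Ndufs6b less so, and for Ndufa12 both were lowest in non-UVB replicate 2.

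The other 11 dropped names with a parent among the members included Atp5k-ps2 and Atp5l2-ps, at means of 88.0 and 91.3 TPM, and Atp5c1-ps at 0.903 TPM. Ndufb1-ps is a different case, since RefSeq lists a promoter for Ndufb1, and it had 225 and 391 TPM in the non-UVB and 267 and 242 TPM in the UVB libraries. It was left out of the sums by its name.

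Among respiratory chain genes outside the naming rule, 0 of 9 passed the adjusted threshold. Etfdh, which hands electrons from fatty acid oxidation to coenzyme Q, had 0.037 and 0.565 TPM in the non-UVB and 58.3 and 126 TPM in the UVB libraries (limma adjusted p = 0.223), so it passed the filter only through the UVB libraries and had to differ once tested. Cycs, which encodes cytochrome c, had 81.9 and 51.0 TPM against 110 and 94.3 TPM, and Cyc1, the cytochrome c1 of complex III, had 262 and 194 TPM against 236 and 137 TPM. The groups did not overlap for Etfdh and Cycs. Of the 9 genes, 2 (22.2%) were separated above and 1 (11.1%) below, against 23.2% and 9.71% of all genes.

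Genes that build the complexes were lower and more variable than the subunits. Of 47 assembly factors, 34 were tested, 0 passed the adjusted threshold, and at an unadjusted p under 0.05 there were 4 higher (11.8% of 34, against 9.97% of all genes) and 1 lower (2.94%, against 1.37%) with UVB, shares near those of all genes. All 4 higher factors were below 1 TPM in both non-UVB libraries and passed the filter only through the UVB libraries. The medians of the tested factors were 31.4 and 21.8 TPM in the non-UVB and 36.2 and 42.9 TPM in the UVB libraries, and 20, 6, 7 and 5 of the 47 were listed at 0 in non-UVB 1, non-UVB 2, UVB 1 and UVB 2. The complex I assembly factor Ndufaf1 had 0.070 and 0.462 TPM against 72.8 and 50.0 TPM, and Tmem126b, of the same assembly complex, was at 0 and 0.169 TPM against 27.7 and 91.5 TPM. Coa5, a complex IV assembly factor, went the other way with 63.4 and 61.5 TPM against 3.54 and 0.266 TPM. The copper chaperone Cox17 was the most abundant factor, with 225 and 248 TPM against 319 and 561 TPM. The median SE of the factors was 1.19 log2, against 0.58 for the subunits.

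Related mitochondrial lists gave no gene past the adjusted threshold. Of 13 genes of coenzyme Q synthesis 7 were tested, with a median of 2.40 log2, against 0.26 over all genes tested. At an unadjusted limma p under 0.05, 2 of the 7 were higher (28.6%, against 9.97% of all genes). These were Coq5 (0.058 and 0.353 TPM against 16.8 and 13.4 TPM) and Coq10b (20.1 and 8.36 TPM against 82.4 and 65.4 TPM). Coq5 passed the filter only through the UVB libraries, and both the median and the share of the 7 include it. Neither therefore measures the list apart from the filter. Of the 13 genes, 6 and 3 were listed at 0 in the non-UVB and 3 and 1 in the UVB libraries. Of 16 genes of the citric acid cycle and pyruvate dehydrogenase 15 were tested, with a median of 0.49 and 9 higher means (60.0%, against 61.0% of all genes). Mdh2, a malate dehydrogenase and the most abundant of them, had 481 and 401 TPM in the non-UVB and 672 and 567 TPM in the UVB libraries. Of 13 regulators of mitochondrial biogenesis 8 were tested, with a median of -0.15 and 4 means in each direction (50.0% higher, against 61.0% of all genes). Tfam, which packages and transcribes mitochondrial DNA, had 64.0 and 34.4 TPM in the non-UVB and 8.34 and 0.201 TPM in the UVB libraries, and Gabpa, the DNA-binding chain of GABP, had 0.023 and 0.10 TPM against 11.4 and 21.6 TPM. Neither passed (limma adjusted p = 0.514 and 0.223). Gabpa was tested only because it reached 1 TPM in the UVB libraries, and it shares exon bases with the member Atp5j on the opposite strand.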

How the data were processed

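Of cells labelled as skin Treg cells, 4 libraries were compared, 2 per group. Per the labels' protocols, total RNA was made into libraries with an ultra-low-input SMARTer kit and read as single ends of 100 bp. HISAT2, StringTie, DESeq2 and the build GRCm38 (mm10) are named in the submitters' processing notes, without version or role. Per the file headers, the authors deposited coverage (mean read depth per base), FPKM and TPM for each gene, 1 table per library. Rows of a gene ID were summed. The gigabases behind FPKM were taken from the highest ratio of deposited coverage to deposited FPKM, and no count test was run, since the tables hold no read numbers.

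The 10286 genes that reached 1 TPM in 2 or more libraries were fitted as log2(TPM + 1) with limma 3.58.1 in R 4.3.3, with an intensity trend and no term but the group. P-values were adjusted by Benjamini-Hochberg over all genes tested, with a threshold of 0.05. Differences are UVB minus non-UVB on that scale, which understates changes of low genes. On simulated data with the spread of these libraries, limma called 0 of 200 genes changed by 6 log2, and 199 of 200 at 10% of that spread. Gene types, exon lengths and copy identities (best local alignment, Biopython 1.88) came from GENCODE M21, in which all 89 members had the files' coordinates. Promoter windows came from RefSeq (GRCm38.p6).

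The members and lists were chosen with earlier results of these data known. Named genes were the 2 most abundant members of each complex, up to 3 per complex and direction with the smallest unadjusted p, 9 catalytic or regulatory subunits, members under 1 TPM in 1 library and at least 20 TPM in another, and detected tissue isoforms, with a few of each other list. Genes outside this rule (Ndufa9, Ndufs3, Cox6c, Cox7a2, Cox7a2l, Cox7b, Atp5g1, Atp5g3, Atp5o and the copies) were named after their values were seen. As alternatives, other pseudocounts, filters, units, scalings, totals and spread models were tried, the replicate number was added as a block, and each library was left out in turn.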

Additional observations from a re-analysis of the deposited data

How the results depend on the processing

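Across 13 alternatives, 0 members passed the adjusted threshold in any. At an unadjusted p under 0.05 the count of 3 members became 5 after scaling to the median tested gene, and between 0 and 9 when 1 library was left out, the 9 without non-UVB replicate 1 and the 0 without either UVB library, where the isoforms no longer passed the filter. The count of members without overlap, 21, was between 37 and 65 with 1 library left out. That count compares levels alone, and a single library is more easily separated from the other group than a pair is. In the limma fits of these settings, the single library is assumed to vary like the other group. Scaling to the median tested gene also moved the members' median difference from 0.16 to -0.48 and the ratio of their summed levels from 0.996 to 0.617. That scaling sets the median of 16.3, 11.6, 21.9 and 21.1 TPM in non-UVB 1, non-UVB 2, UVB 1 and UVB 2 to 1 value. The genes behind that median include those that passed the filter only through the UVB libraries. The median difference was between -0.07 and 0.20 with 1 library left out, and it was negative without non-UVB replicate 1.

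With the replicate number as a block the unadjusted count was 5, 3 higher and 2 lower, and no other call changed. The deviations of same-numbered libraries from their group means correlated at 0.17 over 10286 genes and at 0.46 over 83 members. The labels do not say that a number marks a shared animal or day.

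Of 15 members whose difference was followed, 3 values turned sign. Ndufs1 was at -1.47 without non-UVB replicate 2 and at -0.21 without UVB replicate 1, against 3.95 without non-UVB replicate 1, and Atp5h was at -0.17 after scaling to the median tested gene. The differences of Cox7a1, Cox6b2 and Ndufa4l2 depend on the pseudocount, since they were listed at 0 in 1 group: they were 5.28, 4.94 and 4.19 at 1 and 8.57, 8.22 and 7.44 at 0.1. Files without read numbers give no counting interval for any of these levels.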
